A study of Mus musculus with 6 samples.

Results

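Sirpa encodes the receptor SIRPA, Cd47 encodes the surface protein that SIRPA binds on neighbouring cells, and Thbs1, Thbs2 and Thbs3 encode secreted thrombospondins. These 5 genes were followed in endothelial cells sorted from mouse lungs. They were found by symbol among the 23793 rows of a table of gene levels, and each matched 1 row. Sirpa was taken up because it was lower in mutant than in control libraries, and the other 4 because their products belong to the same ligand and receptor system. The values of this contrast therefore describe the 5 genes and carry no p-value.

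There were 6 RNA sequencing libraries, 3 from control and 3 from mutant lungs, each group with replicates A, B and C, and the control and mutant library of a letter form a pair in this text. All mice were at postnatal day 7 and of mixed strain background. The titles name Vegfa and Shh for controls and mutants alike, and the series title places Vegfa in the epithelium. Neither the alleles, a Cre driver, the sorting gate nor the number of animals per library is in the labels, and the text keeps their words control and mutant. They also do not say that each library came from its own animal, so errors measure the spread between libraries, which may be technical.

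SIRPA is an inhibitory receptor with immunoglobulin-like domains, best known from macrophages and neurons. When it binds CD47, tyrosines in its cytoplasmic tail are phosphorylated and recruit the phosphatases SHP-1 and SHP-2, and in phagocytes this restrains engulfment of the cell that carries CD47. CD47 is also a receptor for thrombospondin 1, through which thrombospondin limits nitric oxide signalling in vascular cells. Thrombospondins 1 and 2 are matrix-associated trimers that inhibit angiogenesis, and thrombospondin 3 belongs to the pentameric subgroup.

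Levels are in FPKM, sequenced fragments divided by transcript length and by the size of the library, so that levels of different genes can be set side by side. The files do not give total fragments per library. Relative to control A, depth read from the steps between very low values was 0.897 to 1.49. Differences are on the log2(FPKM + 1) scale, which understates the change of low genes. A difference was called at an adjusted p of 0.05 with limma over the 11693 rows whose mean reached 1 FPKM. All 5 genes had such a mean. In bulk RNA, fewer cells of a type and less RNA per cell cannot be told apart.

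Endothelial markers were high in both groups. The 8 endothelial markers summed to between 5195 and 6037 FPKM in control and between 4150 and 4579 FPKM in mutant libraries. The gap came from Cldn5, a tight junction protein of endothelium, at 2042 to 2430 FPKM in control and 798 to 1250 FPKM in mutant libraries (log2 difference -1.06, limma adjusted p = 0.288). Without it the other 7 summed to 3145 to 3607 and 2900 to 3420 FPKM, and the groups overlapped. Among 10 myeloid leukocyte markers, the summed level was 11.6 to 38.1 FPKM in control and 11.7 to 37.9 FPKM in mutant libraries, and Itgam, Itgax, Fcgr1 and Marco stayed under 1 FPKM in all 6. Mesenchymal markers were well above 0 and uneven. The 12 of them summed to 484 FPKM in control A, 337 FPKM in mutant A and 596 FPKM in mutant C, against 1329 to 1453 FPKM in control B, control C and mutant B.

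Sirpa lies on chromosome 2 (129591042 to 129632228, plus strand, GRCm38). It was at 30.5 (A), 35.6 (B) and 31.3 FPKM (C) in the control replicates, and 4.66 (A), 4.54 (B) and 4.70 FPKM (C) in the mutant replicates. The groups were far apart, and the 3 mutant libraries lay almost on top of each other. The mean was 32.5 ± 2.73 FPKM (SD, n = 3) for controls, against 4.63 ± 0.0882 FPKM for mutants, so that 14.3% of the control mean remained, a level 7.0 times lower. The log2 difference was -2.57 ± 0.10 (SE), and within pairs A, B and C it was -2.47, -2.72 and -2.50. In the ranking of tested rows, Sirpa stood above 76.7% to 80.1% of them in the control libraries and above 21% to 25.7% in the mutant libraries.

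**Figure D1:**
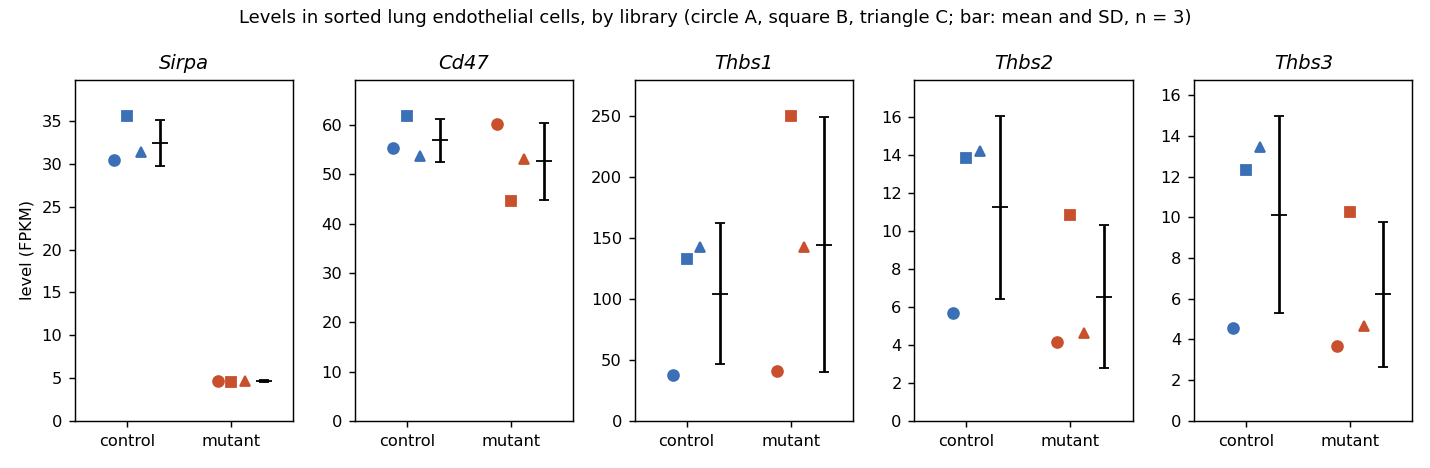
Level of each gene in FPKM (vertical axis, from 0, a scale of its own per panel) in the 3 control and 3 mutant libraries; circles are replicate A, squares B and triangles C, and the bar beside each group is the mean with its SD. Sirpa separates into 30.5 to 35.6 FPKM in control and 4.54 to 4.70 FPKM in mutant libraries, while the groups overlap for Cd47 and the thrombospondins.

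Of the 5 genes, 1 was called, which was Sirpa, lower in the mutant. Over all tested rows 0.137% were called lower and 0 higher, and since Sirpa was chosen by this contrast nothing is read from that count. Without overlap between the groups, with mutants below controls, stood 1 of the 5, again Sirpa, against 6.57% of all tested rows.

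The other SIRP genes were at or near 0. Mouse has a cluster of Sirpb1 genes on chromosome 3 that resemble Sirpa in the extracellular part, and their products signal through the adaptor DAP12 (Tyrobp). Of 5 such genes looked for, Sirpb1b was listed at 0 throughout, Sirpb1a, Gm5150 and Gm9733 reached at most 0.093, 0.181 and 0.150 FPKM, and Sirpb1c was not found by symbol. In the longest protein-coding Sirpa transcript of GENCODE (3982 nt), 0 of 3907 windows of the read length of 76 nt occurred in a transcript of another gene.

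The cytoplasmic tail is what makes SIRPA inhibitory, so its tyrosine motifs are shown as the codons that this RNA carries. The pattern searched was S, I, V or L, any residue, tyrosine, 2 residues of any kind, and I, L or V, translated in the longest reading frame of that transcript, and it matched 3 times, at codons 436, 477 and 501 of 509. The tyrosine codon is in capitals, 5′ to 3′.
Sirpa codon 436: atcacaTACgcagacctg
Sirpa codon 477: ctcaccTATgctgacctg
Sirpa codon 501: tcagagTATgctagtgtc
All of these matches lie near the end of the frame. Tyrosines in other surroundings were not searched for, so this is not a count of the signalling tyrosines of the tail. The table gives 1 level per gene and does not tell transcripts with and without such codons apart.

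The rows whose profile over the 6 libraries was most like that of Sirpa were also genes high in control and low in mutant libraries. Nearness to Sirpa requires that split, since Sirpa was chosen for it, so the likeness only describes these rows. Likeness was the root mean square difference of log2(FPKM + 1) after each row was centred on its own mean. It was 0.18 for Krt80, a keratin, 0.20 for Begain, 0.30 for Cdkn2b, which restrains the cell cycle as a blocker of cyclin-dependent kinases, and 0.33 for Chst1, a sulfotransferase. It was 0.34 for Tbxa2r, the thromboxane receptor, and 0.41 for Pde8b, a phosphodiesterase of cyclic AMP. Only 10 of 11051 rows compared came within 0.5 of Sirpa. Krt80, the nearest, read 27.3, 21.4 and 26.0 FPKM in control replicates A to C, and 3.01, 3.29 and 3.44 FPKM in mutant replicates A to C.

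The evenness of Sirpa among mutants was not shared by Car4, carbonic anhydrase 4, the gene that names the Car4-high capillary cells of the lung. Car4 was at 226 (A), 201 (B) and 170 FPKM (C) in the control replicates, and 14.1 (A), 19.96 (B) and 1.43 FPKM (C) in the mutant replicates. Mutant levels were thus 6.25%, 9.95% and 0.842% of the control of the same pair for Car4, and 15.3%, 12.75% and 15.0% for Sirpa. Mutant C was far below the other mutants for Car4 and level with them for Sirpa. Among the marker lists, the mean profile of the 8 Car4-high capillary markers was the nearest to Sirpa, at a likeness of 0.51, against 0.91 for erythroid, 0.96 for platelet, 1.04 for epithelial and 1.14 for mesenchymal markers. It was 1.23 for endothelial, 1.34 for general capillary and 1.36 for myeloid markers. Nearness to Sirpa again requires the split for which Sirpa was chosen, so this order only describes the lists. Car4 itself is among the 8 markers. The Car4-high capillary list summed to 1599 to 1645 FPKM in control libraries. Mutant C, at 1756 FPKM, stood above every control, while mutant A summed to 737 FPKM and mutant B to 1002 FPKM. Of these 8 markers, 7 had a lower mutant mean, and none passed in limma (lowest adjusted p of 0.11). Igfbp7 had a higher mutant mean, with 1393 FPKM in mutant C against at most 729 FPKM in any control. Apln also peaked in mutant C, at 243 FPKM against a control maximum of 169 FPKM. Erythroid markers summed to 31.2 to 155 FPKM in control and 18 to 40.7 FPKM in mutant libraries, platelet markers to 13.8 to 21.8 and 5.35 to 14.3 FPKM, and epithelial markers to 118 to 270 and 40.7 to 137.5 FPKM. The groups overlapped for all 3 lists, in pair B the erythroid sum was higher in the mutant, and no marker of these lists passed in limma (lowest adjusted p of 0.586, 0.546 and 0.263). Hopx, listed as an epithelial marker, was the one with that 0.263, at 57.9 to 60.8 FPKM in control and 5.87 to 21.6 FPKM in mutant libraries. The other epithelial markers tested were mixed, with log2 differences of -1.45 for Sftpc, -1.125 for Sftpb, -0.10 for Ager, 0.14 for Pdpn and 0.18 for Scgb1a1. Epcam stayed under 1 FPKM in all 6 libraries. The part of these cells in the result was not tested. The summed myeloid markers of mutant A, 37.9 FPKM, stood against 11.7 and 12.5 FPKM in mutants B and C, with Sirpa at 4.66, 4.54 and 4.70 FPKM in these libraries.

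**Figure D2:**
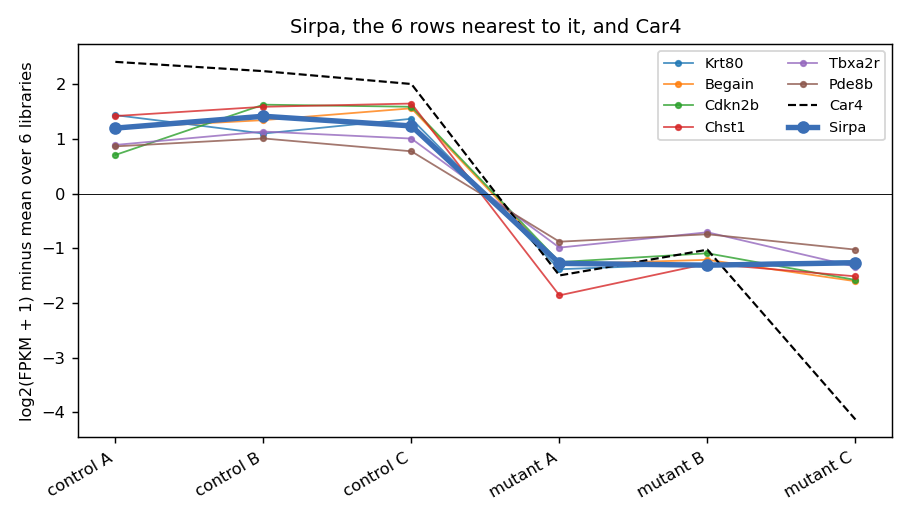
Level on the log2(FPKM + 1) scale minus the row's mean over the 6 libraries (vertical axis) in each library (horizontal axis) for Sirpa (thick line), the 6 rows nearest to it and Car4 (dashed); lines only join the values of a gene. Sirpa and Krt80 are flat across the mutants, and Car4 drops in mutant C, where it was at 1.43 FPKM.

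Cd47, the ligand, lies on chromosome 16 (49851328 to 49912503, plus strand) and showed no separation of the groups. It was at 55.2 (A), 61.7 (B) and 53.6 FPKM (C) in the control replicates, and 60.2 (A), 44.6 (B) and 53.0 FPKM (C) in the mutant replicates. The ranges overlapped, with mutant B the lowest and control B the highest. The mean was 56.8 ± 4.31 FPKM in control, against 52.6 ± 7.82 FPKM in mutant libraries, a log2 difference of -0.12 ± 0.13 (SE), with 0.12 (pair A), -0.46 (pair B) and -0.01 (pair C). Without mutant B the log2 difference was -0.01.

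The proportion of Cd47 to Sirpa differed between the groups. As Cd47 was nearly level, this restates the lower Sirpa for which that gene was chosen. Cd47 stood at 1.81, 1.74 and 1.71 times the level of Sirpa in control replicates A to C, and at 12.9, 9.84 and 11.3 times in mutant replicates A to C. The rows nearest to Cd47 were B3gnt2, Lmbr1l and Hcfc1r1, at likenesses of 0.04, 0.05 and 0.05. That nearness marks a flat profile, since 6147 of the 11051 rows lay within 0.25 of Cd47. The mean of the 8 endothelial markers lay 0.10 from it.

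Thbs1 was the most variable of the 5 genes between libraries and did not separate by group. It lies on chromosome 2 (118111876 to 118127133, plus strand). Its level was 37.8 (A), 132 (B) and 143 FPKM (C) in the control replicates, and 40.6 (A), 250 (B) and 143 FPKM (C) in the mutant replicates. Both libraries of pair A were low and both of pairs B and C were high. The description label of pair A begins with another prefix than that of the remaining pairs, and nothing says what the prefix stands for. Relative to the pair A library of the same group, Thbs1 was 3.5 and 3.78 times higher in controls B and C and 6.15 and 3.52 times higher in mutants B and C.

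The group means of Thbs1 were 104 ± 57.9 FPKM in control, against 144 ± 105 FPKM in mutant libraries, a log2 difference of 0.34 ± 0.75 (SE). Within pairs A, B and C it was 0.10, 0.91 and -0.0029, so the excess in the mutant mean came from pair B. The sign turned without control A (-0.28) and without mutant B (-0.23), and in pairs B and C alone the difference was 0.45. Nearest to Thbs1 were Scarf2, Fgfr4 and Irs2, at likenesses of 0.25, 0.25 and 0.27. Scarf2, a scavenger receptor family member, read 10.5, 35.2 and 34.1 FPKM in control replicates A to C, and 10.4, 47.1 and 26.6 FPKM in mutant replicates A to C.

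Thbs2 and Thbs3 had nearly the same profile as each other. Thbs2 (chromosome 17, 14665500 to 14694262, minus strand) was at 5.71 (A), 13.8 (B) and 14.2 FPKM (C) in the control replicates, and 4.16 (A), 10.9 (B) and 4.62 FPKM (C) in the mutant replicates. Thbs3 (chromosome 3, 89215180 to 89226841, plus strand) read 4.57, 12.3 and 13.5 FPKM in control replicates A to C, and 3.69, 10.3 and 4.68 FPKM in mutant replicates A to C. Control A, mutant A and mutant C were low for both genes, the other 3 libraries were high, and the groups overlapped. Their likeness was 0.087, and 3 of the 11051 other rows lay nearer to Thbs2 than Thbs3 did. The ratio of Thbs2 to Thbs3 ran from 0.987 to 1.25 over the 6 libraries.

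The mean of Thbs2 was 11.3 ± 4.80 FPKM in control, against 6.55 ± 3.75 FPKM in mutant libraries, a log2 difference of -0.71 ± 0.43 (SE). For Thbs3 the means were 10.1 ± 4.84 and 6.22 ± 3.55 FPKM and the difference -0.61 ± 0.46. Both were lower in the mutant of every pair, by -0.38, -0.32 and -1.44 for Thbs2 and by -0.25, -0.24 and -1.35 for Thbs3 in pairs A, B and C. Pair C carried most of the mean difference. In pairs B and C alone the difference was -0.88 for Thbs2, -0.80 for Thbs3, -0.24 for Cd47 and -2.61 for Sirpa. Leaving out single libraries moved the difference between -1.10 and -0.49 for Thbs2 and between -1.05 and -0.36 for Thbs3.

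The levels of Thbs2 and Thbs3 went with those of mesenchymal markers, genes of fibroblasts, pericytes and smooth muscle. The mean profile of the 11 mesenchymal markers tested lay 0.15 from Thbs2 and 0.11 from Thbs3, and that of endothelial markers 0.71 and 0.73. Pdgfra, a fibroblast receptor, read 9.41, 23.4 and 26.3 FPKM in control replicates A to C, and 5.31, 16.4 and 6.40 FPKM in mutant replicates A to C. None of these markers passed the test in limma (lowest adjusted p = 0.586). Thbs1 was 0.64 from the mesenchymal mean, the nearest of the marker lists to it, and 1.10 from the endothelial mean. Thbs1 was low with the mesenchymal markers in pair A. Mutant C held as much Thbs1 as control C, while its mesenchymal sum was 596 FPKM against 1415 FPKM. The part of mesenchymal cells in the thrombospondin levels was not tested. In proportion, Thbs1 stood at 6.62 to 10.1 times the level of Thbs2 in control libraries and at 9.76, 23.0 and 30.9 times in mutants A, B and C.

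**Figure D3:**
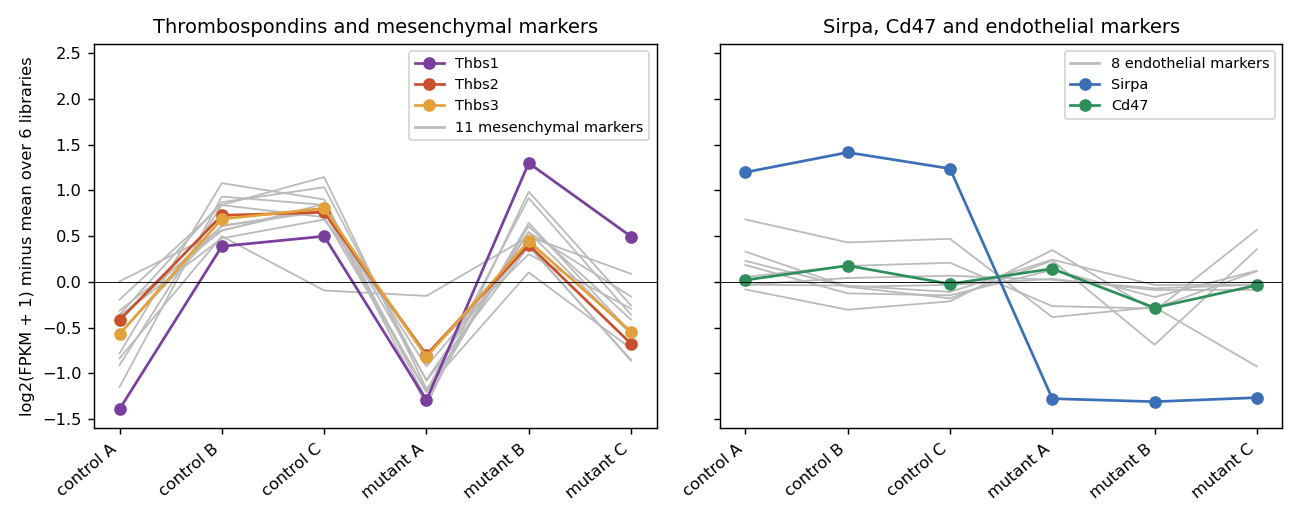
Level on the log2(FPKM + 1) scale minus the mean over the 6 libraries (vertical axis) in each library; left, Thbs1, Thbs2 and Thbs3 over 11 mesenchymal markers (grey), right, Sirpa and Cd47 over 8 endothelial markers (grey), with lines only joining the values of a gene. Thbs2 and Thbs3 run within the grey lines, Thbs1 leaves them in controls A and B and in mutants B and C, and Sirpa stands outside the endothelial markers in every library.

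Because Thbs2 and Thbs3 moved together and Cd47 did not move with them, their promoters are shown, from 250 bases before to 50 after the gene start (RefSeq, GRCm38.p6). Promoters of Thbs1 and Sirpa were not used here. Capitals mark the TATA box letters TATAAA, the CCAAT box letters CCAAT, and the GC box letters GGGCGG, on either strand, and no match overlapped another. They are read 5′ to 3′ on the strand of the gene, and for Cd47 the start in the promoter table lies downstream of the first base of the gene given above.
Thbs2 chr17:14694213-14694512: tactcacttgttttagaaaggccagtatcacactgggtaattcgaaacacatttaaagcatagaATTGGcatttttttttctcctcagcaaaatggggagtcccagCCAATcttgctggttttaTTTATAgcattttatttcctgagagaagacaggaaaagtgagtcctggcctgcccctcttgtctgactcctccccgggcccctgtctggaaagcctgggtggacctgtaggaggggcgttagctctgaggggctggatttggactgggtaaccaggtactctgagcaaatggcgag
Thbs3 chr3:89214930-89215229: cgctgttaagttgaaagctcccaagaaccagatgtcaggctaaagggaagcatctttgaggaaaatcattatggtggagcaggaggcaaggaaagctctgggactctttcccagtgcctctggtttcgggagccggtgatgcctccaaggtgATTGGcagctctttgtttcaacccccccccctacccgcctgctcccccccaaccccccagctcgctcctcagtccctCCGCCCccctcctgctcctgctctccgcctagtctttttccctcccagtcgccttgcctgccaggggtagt
Cd47 chr16:49855404-49855703: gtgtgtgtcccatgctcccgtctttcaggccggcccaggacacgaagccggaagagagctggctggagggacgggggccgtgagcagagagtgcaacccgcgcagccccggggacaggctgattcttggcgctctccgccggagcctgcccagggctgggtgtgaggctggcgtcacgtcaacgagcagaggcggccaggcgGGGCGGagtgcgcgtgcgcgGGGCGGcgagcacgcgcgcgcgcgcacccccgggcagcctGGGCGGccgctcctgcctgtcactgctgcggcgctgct
The Thbs2 window held CCAAT on both strands and TATAAA on the opposite strand, 126 bases before the start. The Thbs3 window held CCAAT and GGGCGG, each on the opposite strand, 98 and 21 bases before the start. The Cd47 window held GGGCGG 3 times. Of 32851 promoters of this length, 13.6% held TATAAA, 37.4% CCAAT and 35.7% GGGCGG. The share of G and C was 48.3% for Thbs2, 59.0% for Thbs3 and 74.0% for Cd47, against a median of 52.7% over all, and the Cd47 window held 35 CG dinucleotides against 4 and 8. These matches describe the letters and say nothing of the factors.

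Neighbouring genes touch 2 of the 5. In GENCODE, exons of the antisense gene Mtx1 cover 6.59% of the exon bases of Thbs3, and 3.4% of the 76 nt windows of its longest protein-coding transcript also occur in Mtx1. The sources used here do not give whether counting was by strand, so reads from that stretch cannot be told apart. Mtx1 was at 14.6 to 15.6 FPKM in control and 15.0 to 18.8 FPKM in mutant libraries. The antisense RNA Gm29233 covers 3.42% of the exon bases of Thbs1.

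By level, the order of the genes differed between the groups mainly through Sirpa. In control libraries the means ran Thbs1, Cd47, Sirpa, Thbs2 and Thbs3 at 104, 56.8, 32.5, 11.3 and 10.1 FPKM. The ranges of Thbs1 and Cd47 overlapped, as did those of Thbs2 and Thbs3, while Cd47 against Sirpa and Sirpa against Thbs2 did not. In mutant libraries Sirpa had the lowest mean, 4.63 FPKM, inside the ranges of Thbs2 and Thbs3. In mutant B it was the lowest of the 5, in mutant A it lay just above Thbs2, and in mutant C just above Thbs3.

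**Figure D4:**
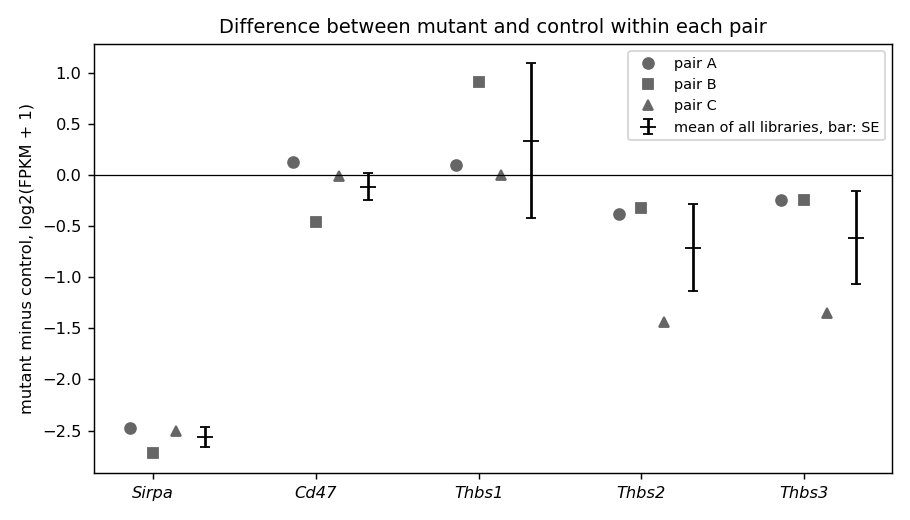
Mutant minus control on the log2(FPKM + 1) scale (vertical axis) within pairs A, B and C (circle, square, triangle) for each gene, with the mean over all libraries and its SE as the bar. The SE comes from the fit that ignores the pairs, so it does not measure the spread of the points. Sirpa lies between -2.72 and -2.47 in the 3 pairs, and Cd47 and Thbs1 have pairs on both sides of 0.

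The other genes of the system were read from 9 lists with 50 distinct genes. The lists were chosen with earlier results of these data known, so the counts below only describe them. Of these, 49 were in the table, 39 were tested and 0 passed in limma in either direction, against 0.137% called among all tested rows. At an unadjusted p under 0.05 there were 7 lower and 0 higher, against 4.29% and 3.81% of all tested rows. The median log2 difference was -0.21, with 27 lower and 12 higher in mean, beside a median of 0.02 over all tested rows. In 6 of the 39 (15.4%) the mutants lay below all controls and in 0 above them, against 6.57% and 7.12% of all tested rows.

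Of 8 genes listed for signalling of SIRP receptors inside the cell, 6 reached a mean of 1 FPKM, and Ptpn6 and Fyb, genes of blood cells, did not. Tyrobp is in this list as the adaptor of the Sirpb1 products, not as a carrier of the SIRPA signal. Ptpn11, which encodes SHP-2, was at 25.6 ± 1.43 FPKM in control, against 27.1 ± 4.16 FPKM in mutant libraries (log2 difference 0.07 ± 0.13, limma adjusted p = 0.918). Ptpn6, which encodes SHP-1 and belongs to blood cells, had a mean under 1 FPKM and was 1.58 FPKM in control B and 0.103 to 0.752 FPKM in the others. The kinases Src and Ptk2b had log2 differences of -0.30 ± 0.35 and -0.28 ± 0.20 (limma adjusted p = 0.868 and 0.773), and the adaptor Tyrobp, a gene of myeloid cells, of -0.21 ± 0.56 (0.945). None of 6 tested passed, beside 0.137% of all tested rows, and their median was -0.11. The soluble ligands Sftpa1 and Sftpd, surfactant proteins of the epithelium, were at 0.373 to 3.72 and 0.369 to 2.69 FPKM with limma adjusted p of 0.795 and 0.826.

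No partner of CD47 and no receptor of thrombospondins passed the test, beside 0.137% of all tested rows, so these counts of 0 are near that share. Among 10 CD47 partners 0 passed, 7 were lower and 3 higher in mean, with a median of -0.05. Kdr, a VEGF receptor that associates with CD47, had a log2 difference of -0.29 ± 0.15, the integrins Itgav, Itga2b and Itga2 of -0.33 ± 0.17, -0.48 ± 0.25 and -0.26 ± 0.20, and limma adjusted p lay between 0.67 and 0.787. Of 12 thrombospondin receptors 0 passed, with a median of -0.14. Itga4, the alpha 4 integrin chain, read 5.61, 4.68 and 7.13 FPKM in control replicates A to C, and 2.78, 3.40 and 1.98 FPKM in mutant replicates A to C. Its groups did not overlap, but its log2 difference of -0.87 ± 0.20 had a limma adjusted p of 0.344. Itga3, the alpha 3 chain, read 81.1, 71.6 and 83.1 FPKM in the same order of controls, and 37.9, 39.8 and 61.8 FPKM in mutants (-0.78 ± 0.19, adjusted p = 0.411), again without overlap. The heparan sulfate proteoglycan Sdc4 was at 19.5 ± 3.51 and 24.2 ± 2.88 FPKM (0.31 ± 0.15, adjusted p = 0.665).

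Genes of the nitric oxide pathway that thrombospondin 1 restrains through CD47 had lower means in the mutant for 4 of 5, with a median of -0.53. Of the 5, 0 passed, beside 0.137% of all tested rows. Gucy1b1 and Gucy1a1, listed under older symbols, encode the subunits of soluble guanylate cyclase. Gucy1b1 read 11.7, 14.3 and 18.5 FPKM in control replicates A to C, and 4.50, 10.6 and 4.39 FPKM in mutant replicates A to C (log2 difference -1.16 ± 0.32, limma adjusted p = 0.468). Gucy1a1 had -1.16 ± 0.39 (limma adjusted p = 0.568). Both were lowest in mutants A and C, where the mesenchymal markers summed to 337 and 596 FPKM, and the part of mesenchymal cells was not tested. Prkg1, the kinase activated by cyclic GMP, read 6.34, 5.24 and 4.24 FPKM in the same order of controls, and 3.34, 3.42 and 3.14 FPKM in mutants (-0.53 ± 0.15, adjusted p = 0.47). Nos3, the endothelial nitric oxide synthase, was at 47.4 ± 9.77 and 39.9 ± 9.48 FPKM (-0.25 ± 0.22, adjusted p = 0.807).

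Other surface molecules that restrain or mark cells for phagocytes gave 0 of 4 passed, beside 0.137% of all tested rows. Cd24a, another such signal known from tumour cells, read 52.4, 48.9 and 33.9 FPKM in control replicates A to C, and 27.2, 13.3 and 6.19 FPKM in mutant replicates A to C, without overlap (log2 difference -1.67 ± 0.46, limma adjusted p = 0.47). Pecam1, B2m and Cd200 had log2 differences of 0.06, 0.06 and -0.02 (limma adjusted p of 0.948, 0.978 and 0.988). Among proteins with a thrombospondin type 1 domain, Thsd1, an endothelial membrane protein, read 70.9, 73.0 and 71.9 FPKM in control replicates A to C, and 65.4, 58.9 and 56.8 FPKM in mutant replicates A to C (-0.25 ± 0.09, limma adjusted p = 0.593). Thsd4 and Thsd7a had -0.07 and 0.04 (0.953 and 0.967). The pentameric thrombospondins Thbs4 and Comp stayed under 1 FPKM in all 6 libraries.

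**Figure D5:**
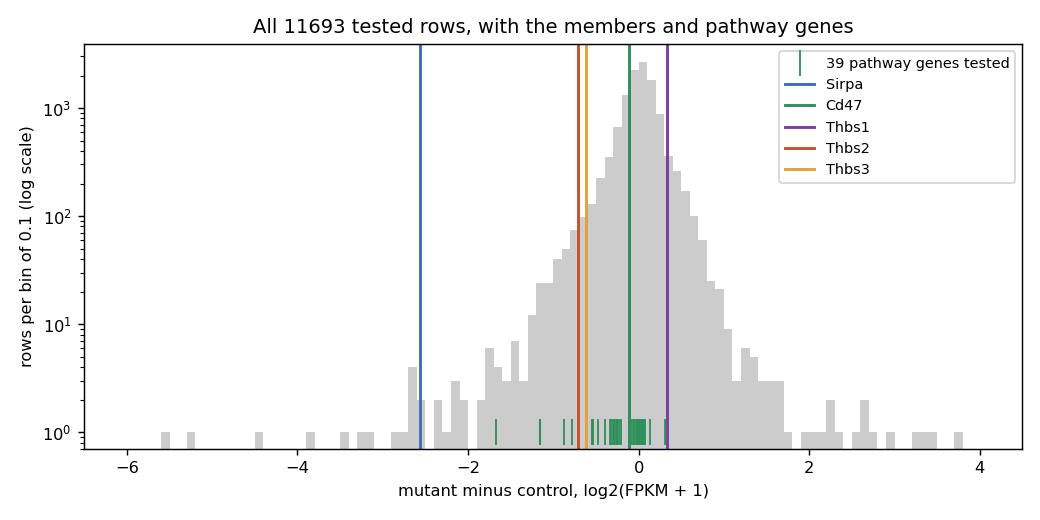
Number of rows per bin of 0.1 (vertical axis, log scale) by mutant minus control difference on the log2(FPKM + 1) scale (horizontal axis) for all 11693 tested rows in grey, with the 5 genes as vertical lines and the 39 pathway genes as green ticks. Sirpa at -2.57 lies in the sparse lower tail, and Cd47 at -0.12 in the body of the distribution.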

How the data were processed

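RNA of lung endothelial cells was measured in 3 control and 3 mutant libraries. Per the labels' protocols, 100 to 200 ng of total RNA went into mRNA isolation and NEBNext library preparation, and sequencing gave 76 nt read pairs, aligned to mm10. TopHat2 2.0.14 and Bowtie2 2.2.3 did the alignment, per the labels' protocols and the submitters' processing notes, which also name Cufflinks 2.2.1 and Cuffdiff. The authors deposited 1 FPKM value per gene and library; the unit follows from those notes and from the values. Since these are not counts, no test for counts was run. The log2 fold changes and p-values in the same table were not used. With no row filter by the authors, 5974 of 23793 rows were 0 throughout.

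Levels were compared on log2(FPKM + 1) with limma 3.58.1 (R 4.3.3), its variances moderated with a mean-variance trend. The 11693 rows whose mean reached 1 FPKM were tested, and Benjamini-Hochberg adjustment ran over all of them. The comparison had 4 residual degrees of freedom, so its precision is limited by the number of libraries. Relative depth came from the commonest ratio of values under 0.1 FPKM. The members and lists were chosen with earlier results of these data known. Named genes were the 5 members, the 4 genes of lowest p in each pathway list, and the rows nearest in profile (6 for Sirpa, 3 for the others), without predicted genes, clones and short RNAs; a few more values were added after they were seen, among them those of Ptpn6, the SIRP family, Car4, Pdgfra and Mtx1. Gene positions come from RefSeq and overlaps from GENCODE M21, both on GRCm38, the build behind mm10.

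Libraries with the same letter deviated together from their group means across genes, with correlations of 0.36 for A, 0.27 for B and 0.19 for C, above the limit of 0.1, so the letters were taken as pairs. This pairing rests on the title letters and these correlations. Alternatives were other pseudocounts, filters and scalings, no trend, the pair as a block, and the leaving out of libraries.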

Additional observations from a re-analysis of the deposited data

How the results depend on the processing

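Over 16 alternatives the log2 difference of Sirpa ran from -2.78 with a pseudocount of 0.1 FPKM and -2.68 with 0.5 FPKM, the only moves beyond the spread of its libraries, to -2.50 without control B; without single libraries it lay between -2.61 and -2.50. The smaller pseudocounts shrink fold changes less by construction. The other 4 genes moved by less than 1 SD between replicates in all 16, with ranges over single libraries left out of -0.22 to -0.01 for Cd47, -0.28 to 1.07 for Thbs1, -1.10 to -0.49 for Thbs2 and -1.05 to -0.36 for Thbs3. The number of rows called over the whole table was 16 and fell to 10 with a mean of at least 5 FPKM, where fewer rows were tested. It fell to 6 with the pair as a replicate block, to 6 to 10 without single libraries and to 6 in pairs B and C alone. Each of these last 3 leaves fewer than the 4 residual degrees of freedom of the main comparison by design. The part of this in the lower counts was not tested. With 3 complete pairs the block leaves each log2 difference as it was by construction (-2.57 for Sirpa) and moves only its SE. With the block the SE was 0.096 for Sirpa, 0.14 for Cd47, 0.20 for Thbs1, 0.24 for Thbs2 and 0.25 for Thbs3. The SEs given in the Results are those without the block. Of the pathway genes 0 passed with the block or under any other alternative. No member or pathway gene had a repeated row, so summing such rows moved none of their values. Total fragments are unknown, so no counting error can be given for low genes such as the SIRP family.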
